A study of Rattus norvegicus with 24 samples.

Results

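The DNA replication machinery is the set of proteins that copy the genome once in each cell cycle, and its genes were compared here in the liver and spleen of rats given cyclophosphamide. A list of 47 genes was drawn up by gene symbol, and 43 of them had a probe set on the array that names the gene alone, out of 14201 such genes in all. Cdc6, Cdc7, Dbf4 and Gins2 had none and were not analysed here. Where a gene had several probe sets, the one with the highest mean over all 24 arrays was used, which was a choice for 11 members.

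The animals were 12 male Sprague-Dawley rats with the genotype Wild Type, 46 to 49 days old. Each of 4 groups held 3 rats: oral vehicle or oral cyclophosphamide at 40 mg/kg/day for 5 days, each with or without a wood stick in the cage. Rats are named by their animal numbers: 1001, 1003 and 1005 had vehicle and no wood, 2001, 2003 and 2005 cyclophosphamide and no wood, 3001, 3003 and 3005 vehicle and wood, and 4001, 4003 and 4005 cyclophosphamide and wood. Values of a group are given in that order. Total RNA of the liver and the spleen of every rat was hybridised to its own array, giving 24 arrays of whole organs in which fewer cells of a type and less RNA per cell cannot be told apart.

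Replication starts from licensing, when the origin recognition complex, with Cdt1, loads the ring-shaped MCM helicase onto DNA. Cdc45 and the GINS complex then join the ring and turn it into an active helicase, polymerase alpha with primase lays down primers, and polymerases delta and epsilon extend them on the PCNA sliding clamp that replication factor C opens and loads. Many of these genes are transcribed as cells pass from G1 into S phase under E2F factors, so that their RNA is abundant in dividing tissue and scarce in resting tissue. The adult liver is mostly made of resting hepatocytes, whereas the spleen of a young rat holds dividing erythroid, myeloid and lymphoid cells. Cyclophosphamide is a prodrug that the liver activates to a mustard, which cross-links DNA and blocks its replication.

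The values are log2 intensities, and each difference is a log2 difference with the standard error (SE) of the limma fit and a p-value adjusted by Benjamini-Hochberg over all genes tested in that comparison, called at 0.05. All 43 members had a value on all 12 spleen arrays. In the liver 27 members had a value on every array, and 8 had too few to be tested: Cdt1, Gmnn, Mcm6, Pola2, Pold1, Pole2, Rfc4 and Wdhd1, of which Gmnn, Pola2 and Pole2 were blank on all 12. The organs carried their own markers. The summed intensity of 7 hepatocyte markers was 69070.2 to 77968 on the liver arrays and 258 to 929 on the spleen arrays, and that of 6 B cell markers in vehicle rats was 15931 to 21066 in spleen and 526 to 729 in liver. Among the spleen arrays, those of rats 1001, 1003 and 1005 (vehicle, no wood) and of rat 2005 (cyclophosphamide, no wood) stood apart with over 1500 blank cells each, against 1021 to 1183 on the other 8. Among the liver arrays that of rat 2003 (cyclophosphamide, no wood) stood apart, with 6060 blank cells against 4924 to 5206 and a mean correlation with the other liver arrays of 0.847 against 0.906 to 0.918.

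In vehicle rats the replication genes were mostly higher in spleen than in liver. Of the 35 members tested, 32 were higher and 1 was lower, beside 59.2% of all 12474 tested genes that were higher and 20.2% that were lower (79.5% in either direction). The median difference of the members was 2.36, beside 0.72 for all tested genes, both on the deposited scale. That shift of all genes was 0.29 after quantile normalisation and 0.13 after median centring of each array, scalings that also act on the differences of the members. The helicase subunits Mcm2 (5.34 ± 0.35, adjusted p = 7.16e-10) and Mcm3 (4.93 ± 0.26, adjusted p = 2.04e-11) stood far above that shift, as did the clamp gene Pcna (2.77 ± 0.10, adjusted p = 7.65e-15). Orc4, a subunit of the origin recognition complex, was lower in spleen (-0.96 ± 0.09, adjusted p = 1.36e-08), and Orc3 and Tipin did not pass the test.

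In the spleen, cyclophosphamide lowered most of the replication genes. Averaged over both housings, 31 of 43 members fell, 2 rose (Pola2 and Orc4) and 10 did not pass the test, where 28.1% of all 13614 tested genes fell, 26.9% rose and 55.0% changed in either direction. The median difference of the members was -0.48, beside -0.022 for all tested genes, and 41 of the 43 lay below 0. The falls were moderate in size: the largest, that of Mcm3, was 2.99-fold, and 8 members fell by more than 1 on the log2 scale. In 11 members all 6 drug arrays lay below all 6 vehicle arrays (15.1% of all genes with a complete set of spleen values did so), namely Gins3, Mcm3, Mcm4, Mcm7, Orc2, Pold1, Rfc1, Rfc4, Rpa1, Rpa3 and Wdhd1. Orc4 was the 1 member with all drug arrays above all vehicle arrays, as 16.1% of genes were. With the arrays of over 1500 blank cells as a batch term, 24 members fell and 2 rose, and Gins4, Mcm5, Mcm10, Prim2, Rfc2, Rpa2 and Timeless no longer passed.

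**Figure D1:**
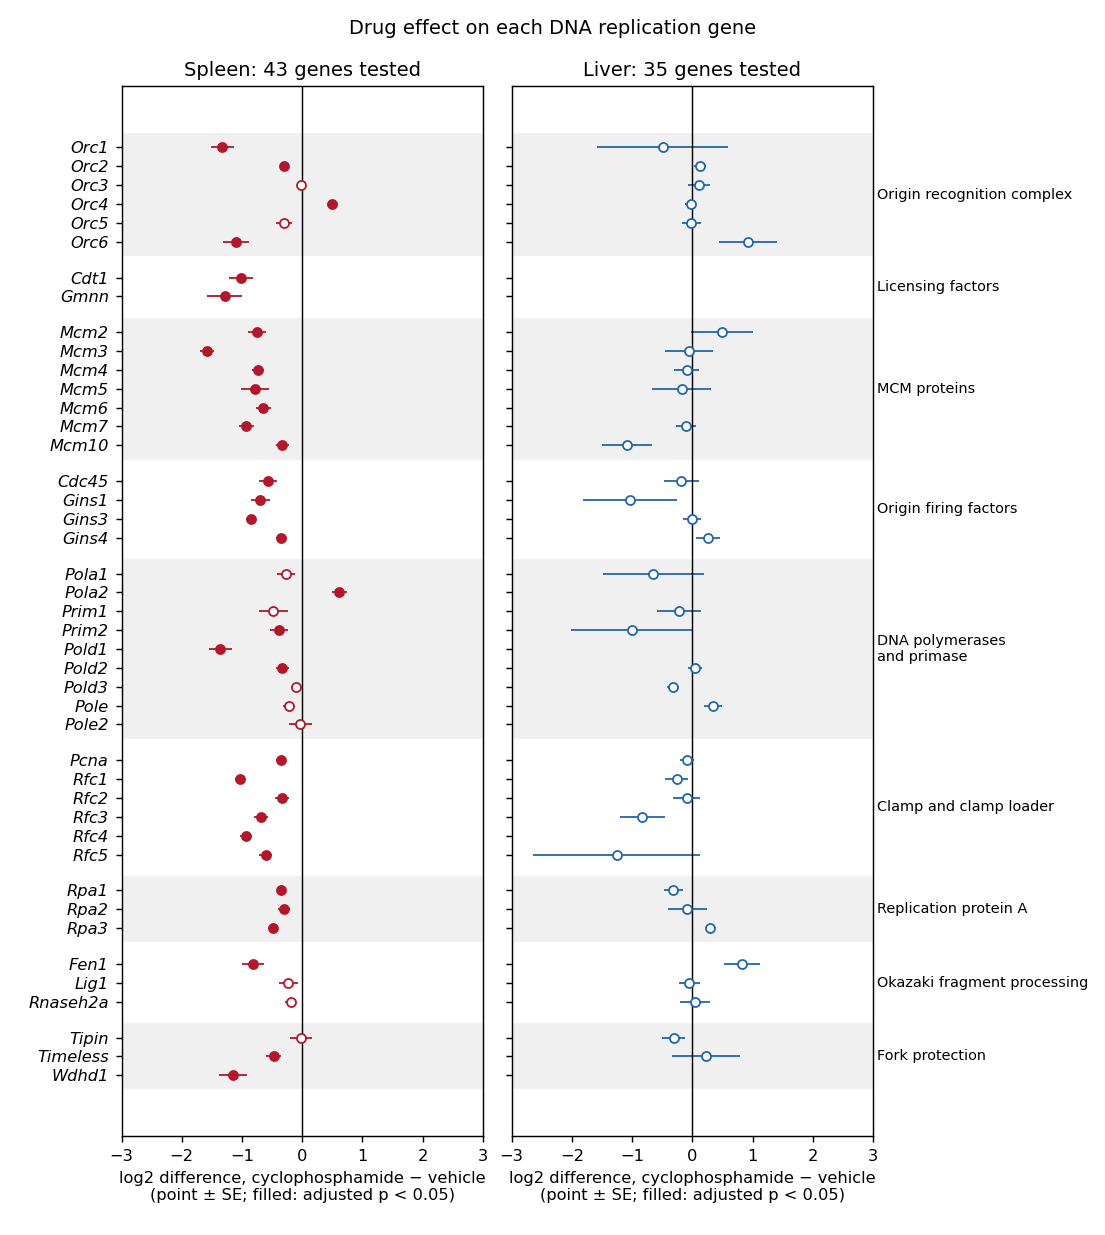
Log2 difference between cyclophosphamide and vehicle rats, averaged over both housings, for each replication gene in spleen (left, 43 genes) and liver (right, 35 genes), grouped by role; points are fitted differences, bars are ± 1 SE, and filled points passed an adjusted p of 0.05. In spleen 31 filled points lie left of 0 and 2 (Orc4 and Pola2) right of it, and in liver no point is filled.

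**Figure D2:**
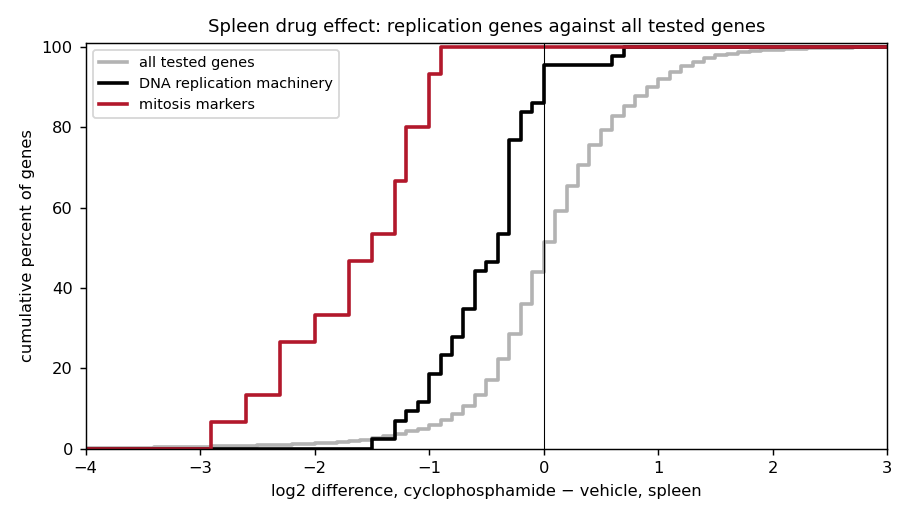
Cumulative percent of genes (y axis) at or below each spleen drug effect on the log2 scale (x axis), for all 13614 tested genes, the 43 replication genes and 15 mitosis markers. The replication curve lies left of that of all genes, with medians of -0.48 and -0.022, and the mitosis curve lies further left, with a median of -1.55.

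The counts of each role group stand beside 28.1% of all tested genes that fell and 26.9% that rose. The origin recognition complex, which marks the sites where replication may start, was mixed: 3 of its 6 genes fell, 1 rose and 2 did not pass, with a median of -0.30. Orc1, the subunit whose protein level follows the cell cycle, measured 6.81, 7.30 and 7.02 in vehicle rats without wood, 5.53, 5.70 and 6.08 in vehicle rats with wood, 4.84, 4.89 and 5.71 in drug rats without wood, and 4.88, 5.36 and 4.80 in drug rats with wood. The vehicle rats without wood lay above all the others, and rat 2005 at 5.71 reached into the range of the vehicle rats with wood. The fitted fall was 1.32 ± 0.18 on the log2 scale (adjusted p = 0.000185). Orc6, a small subunit needed for loading the helicase, measured 7.89, 8.33 and 8.16, then 7.41, 7.58 and 7.61 in the vehicle groups without and with wood, and 6.36, 6.64 and 7.46, then 6.33, 7.21 and 6.39 in the corresponding drug groups. In each drug group 1 rat (2005 and 4003) stood above its group mates, and rat 2005 overlapped the vehicle range. Orc6 fell by 1.10 ± 0.21 on the log2 scale (adjusted p = 0.0015), and all 3 of its probe sets fell, with differences from -2.28 to -0.57.

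Orc4 moved the other way. It measured 7.81, 7.56 and 7.87 in vehicle rats without wood, 7.87, 7.64 and 7.70 with wood, 8.17, 8.19 and 8.32 in drug rats without wood, and 8.51, 8.06 and 8.22 with wood. The groups did not overlap, and the rise was 0.50 ± 0.09 (adjusted p = 0.00111). The other Orc4 probe set gave 0.07 and did not pass, so that the rise rested on 1 of 2 probe sets. Orc2 fell slightly, with a difference of -0.30 ± 0.07 (adjusted p = 0.00474). Orc3 had a difference of -0.02 ± 0.07 and Orc5 one of -0.30 ± 0.13, neither of which passed, and each of these genes had another probe set with a value above 0 that did not pass either.

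Both measured licensing factors fell. Cdt1, which brings the helicase to the origin, measured 8.80, 9.12 and 8.88 in vehicle rats without wood, 7.70, 7.996 and 8.32 with wood, 7.28, 7.38 and 7.91 in drug rats without wood, and 7.03, 8.04 and 7.05 with wood. Gmnn (geminin), the inhibitor that holds Cdt1 back after S phase has begun, measured 7.64, 8.05 and 8.29, then 7.08, 7.27 and 7.07 in the vehicle groups without and with wood, and 6.14, 5.95 and 7.50, then 5.79, 6.74 and 5.57 in the drug groups. For both genes rats 2005 and 4003 were the highest of their drug groups, and the drug and vehicle ranges overlapped through rat 2005 and, for Cdt1, rat 4003. The falls were 1.02 ± 0.20 for Cdt1 (adjusted p = 0.00173) and 1.28 ± 0.29 for Gmnn (adjusted p = 0.00392) on the log2 scale, and both Gmnn probe sets fell.

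All 7 MCM genes fell, with a median of -0.75 and differences from -1.58 to -0.33. Mcm2 to Mcm7 encode the 6 subunits of the helicase ring, and Mcm10 a separate factor that helps to switch it on. Mcm3 measured 9.48, 9.99 and 9.69 in vehicle rats without wood, 10.03, 10.22 and 10.08 with wood, 8.34, 8.60 and 8.30 in drug rats without wood, and 8.05, 8.55 and 8.17 with wood. The highest drug array (8.60) lay well below the lowest vehicle array (9.48), and the fall of 1.58 ± 0.12 on the log2 scale (adjusted p = 3.14e-06) was the largest of the 43 members. Mcm7 (-0.93 ± 0.12, adjusted p = 0.000141) and Mcm4 (-0.74 ± 0.10, adjusted p = 0.000211) also separated the 6 drug from the 6 vehicle arrays. Mcm5 (-0.79 ± 0.23), Mcm2 (-0.75 ± 0.15) and Mcm6 (-0.64 ± 0.13) fell with overlap. Mcm10 had the smallest fall (-0.33 ± 0.11, adjusted p = 0.0246), which passed in 7 of 12 fits that each left out 1 rat, the highest adjusted p being 0.0589 without rat 2001.

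The MCM genes all fell. The bases before the starts of Mcm2, Mcm3, Mcm5, Mcm6 and Mcm7 are shown, from RefSeq on the build GRCr8. It held 38 of the 43 members (Orc1, Orc4, Mcm4, Gins4 and Rpa3 were not in that table). Each run is the 250 bases before the annotated start, 5′ to 3′ on the strand of the gene, with E2F octamers in capitals, counted in bases back from the start. Mcm2 (chr4:122918095-122918344, minus strand) has 2 overlapping matches whose first bases are at -14 and -10. Mcm5 (chr19:13488563-13488812, plus strand) has an overlapping pair at -213 and -209 and a match at -8. Mcm6 (chr13:42404353-42404602, minus strand) has an overlapping pair at -139 and -135. Mcm7 (chr12:22163179-22163428, minus strand) has matches at -233 and -52. Mcm3 (chr9:30733747-30733996, minus strand), the member with the largest fall, and Pola2 (chr1:212680543-212680792, minus strand), which rose, hold none of these letters in this window, and are shown beside them. Mcm10 (chr17:78175137-78175386, plus strand), which also fell, holds none of them either and is not shown.
Mcm2: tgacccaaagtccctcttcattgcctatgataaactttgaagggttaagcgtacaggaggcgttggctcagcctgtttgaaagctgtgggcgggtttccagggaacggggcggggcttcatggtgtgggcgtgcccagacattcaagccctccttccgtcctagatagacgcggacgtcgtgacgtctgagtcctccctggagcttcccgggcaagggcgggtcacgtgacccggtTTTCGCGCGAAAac
Mcm3: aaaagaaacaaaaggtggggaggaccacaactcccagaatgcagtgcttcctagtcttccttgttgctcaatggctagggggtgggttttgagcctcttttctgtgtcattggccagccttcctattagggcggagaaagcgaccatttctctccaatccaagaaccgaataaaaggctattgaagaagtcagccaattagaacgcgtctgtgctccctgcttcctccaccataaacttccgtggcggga
Mcm5: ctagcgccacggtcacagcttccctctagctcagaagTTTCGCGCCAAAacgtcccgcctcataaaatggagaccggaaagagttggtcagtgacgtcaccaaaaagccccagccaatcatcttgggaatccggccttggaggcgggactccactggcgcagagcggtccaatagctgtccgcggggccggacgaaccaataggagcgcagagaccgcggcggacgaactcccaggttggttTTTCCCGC
Mcm6: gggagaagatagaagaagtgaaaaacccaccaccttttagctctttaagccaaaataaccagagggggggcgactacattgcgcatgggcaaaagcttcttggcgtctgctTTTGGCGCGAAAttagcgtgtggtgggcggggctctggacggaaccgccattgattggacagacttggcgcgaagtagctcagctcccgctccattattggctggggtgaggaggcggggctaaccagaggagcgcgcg
Mcm7: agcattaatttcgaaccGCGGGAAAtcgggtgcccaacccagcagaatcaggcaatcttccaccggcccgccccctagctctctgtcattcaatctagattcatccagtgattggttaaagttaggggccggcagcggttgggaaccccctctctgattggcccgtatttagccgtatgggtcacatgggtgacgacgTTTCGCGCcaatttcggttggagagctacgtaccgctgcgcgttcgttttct
Pola2: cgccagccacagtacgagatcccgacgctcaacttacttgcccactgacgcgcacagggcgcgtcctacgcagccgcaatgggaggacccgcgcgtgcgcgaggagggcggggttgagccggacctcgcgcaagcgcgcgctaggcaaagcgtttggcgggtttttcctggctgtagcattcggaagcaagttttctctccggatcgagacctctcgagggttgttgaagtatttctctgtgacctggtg

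The letters searched on both strands were TTTCCCGC, TTTGGCGC, TTTCGCGC and TTTGCCGC, matches may overlap each other, and they were taken as the E2F site. They occurred in 10 of the 38 members (26.3%), in 2.997% of the 11244 promoters of genes tested in spleen and in 1.733% of all 33469 promoters of the same length. The members with a match were Orc3, Orc5, Mcm2, Mcm5, Mcm6, Mcm7, Gins1, Gins3, Pola1 and Tipin. Of these 10, 6 fell in spleen with a median of -0.67, and of the 28 without a match 21 fell with a median of -0.43. The CCAAT box, searched as CCAAT, was in 18 of 38 members (47.4%) and in 35.2% of the promoters of tested genes. The CHR element, searched as TTTGAA, was in 3 of 38 members (7.895%) and in 10.8% of the promoters of tested genes. A match in these letters is a description of the sequence, and binding was not measured.

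**Figure D3:**
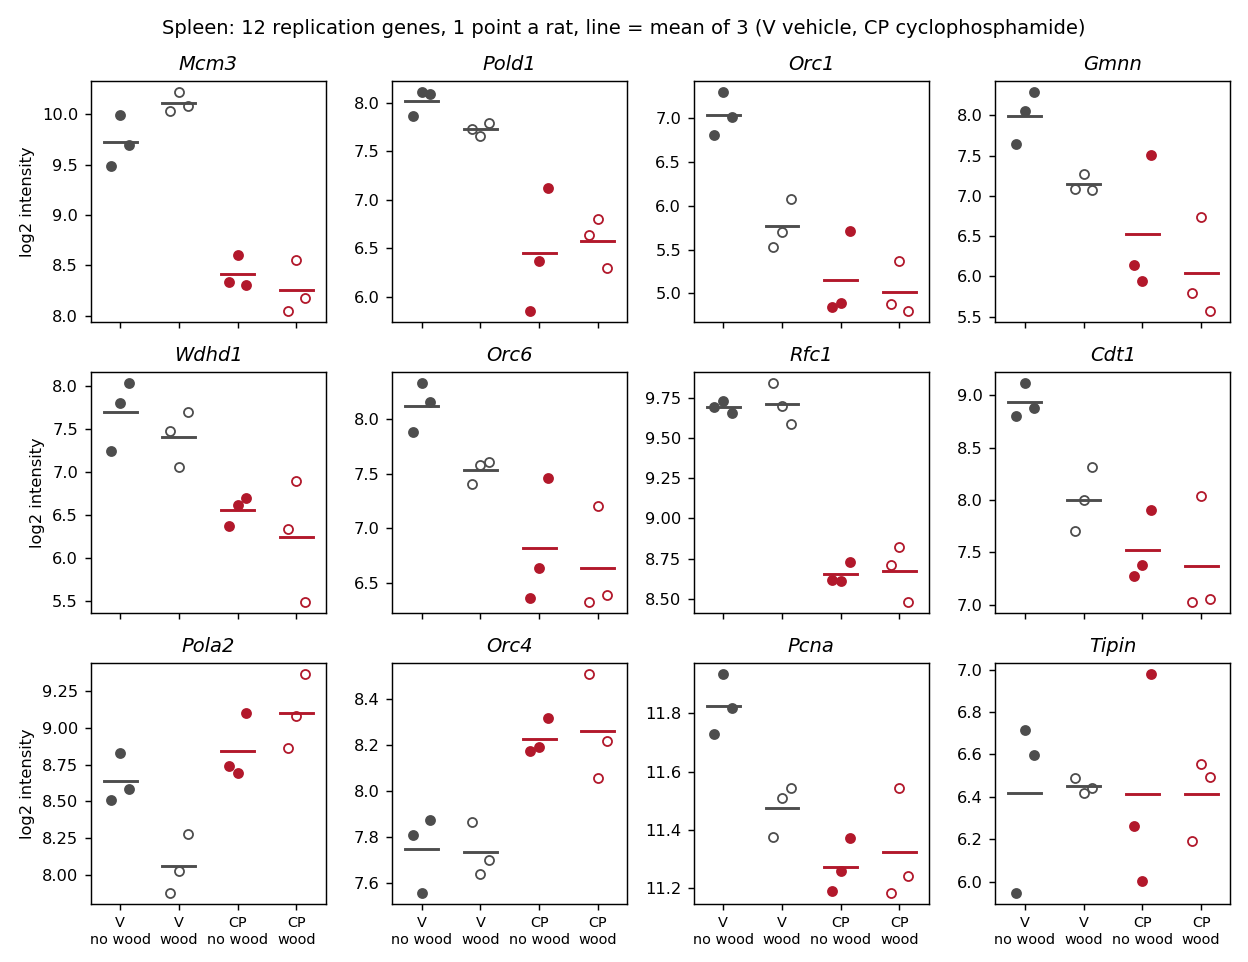
Log2 intensity (y axis) in the spleen of each rat for 12 replication genes; points are single rats, lines are means of 3, V is vehicle, CP is cyclophosphamide, and open points are rats with wood. The first 8 panels show the members with the largest falls, Pola2 and Orc4 show the rises, and Pcna and Tipin show a small fall and a difference of -0.02.

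The 4 measured firing factors, which turn the loaded ring into a moving helicase, all fell, with a median of -0.63. Gins3, a GINS subunit, measured 7.02 to 7.29 in vehicle rats without wood, 6.65 to 6.72 with wood, 6.04 to 6.21 in drug rats without wood and 5.75 to 6.25 with wood. No drug array reached a vehicle array, and the fall was 0.85 ± 0.09 on the log2 scale (adjusted p = 2.95e-05). Gins4, another subunit, had the smallest difference of the group (-0.35 ± 0.09, adjusted p = 0.0106), and its ranges overlapped. Gins1 had a difference of -0.69 ± 0.16 and Cdc45, which bridges the ring and the polymerases, one of -0.57 ± 0.14, and both passed.

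The polymerases and primase were divided: 3 of 9 genes fell, 1 rose and 5 did not pass, with a median of -0.27. The 3 falls are near the share of all tested genes that fell, 28.1%, and 26.9% of all tested genes rose. Pold1, the catalytic subunit of polymerase delta, measured 7.86, 8.11 and 8.09 in vehicle rats without wood, 7.73, 7.66 and 7.80 with wood, 5.86, 6.37 and 7.13 in drug rats without wood, and 6.64, 6.80 and 6.30 with wood. The drug arrays all lay below the vehicle arrays, and rat 2005 was again the highest of its group. The fall was 1.36 ± 0.19 on the log2 scale (adjusted p = 0.000183), whereas the accessory subunit Pold2 differed by -0.33 ± 0.10 (adjusted p = 0.0211) and Pold3 by -0.10 ± 0.09 (not passed). Prim2, the large primase subunit, differed by -0.39 ± 0.14 (adjusted p = 0.0413), which passed in 5 of 12 fits that left out a rat, and the small subunit Prim1 by -0.48 ± 0.24 (adjusted p = 0.115). The catalytic subunit of polymerase epsilon, Pole (-0.22 ± 0.10), its partner Pole2 (-0.03 ± 0.20) and the catalytic subunit of polymerase alpha, Pola1 (-0.27 ± 0.14), did not pass.

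Pola2, the regulatory subunit of polymerase alpha, rose. It measured 8.51, 8.83 and 8.59 in vehicle rats without wood, 7.88, 8.03 and 8.28 with wood, 8.74, 8.69 and 9.10 in drug rats without wood, and 8.86, 9.08 and 9.36 with wood. The lowest values were those of the vehicle rats with wood, and the groups without wood overlapped. The rise was 0.62 ± 0.12 averaged over both housings (adjusted p = 0.00144), being 0.20 without wood (adjusted p = 0.347) and 1.04 with wood (adjusted p = 0.00093).

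All 6 genes of the clamp and its loader fell, with a median of -0.65. Rfc1, the large subunit of the loader, measured 9.69, 9.73 and 9.66 in vehicle rats without wood, 9.84, 9.70 and 9.59 with wood, 8.62, 8.61 and 8.73 in drug rats without wood, and 8.71, 8.82 and 8.48 with wood. The spread within groups was small and the groups were far apart, with a fall of 1.04 ± 0.07 on the log2 scale (adjusted p = 2.58e-06) that came to 1.04 in each housing. Of the other Rfc1 probe sets, 1 fell by 0.46 on the log2 scale and 1 did not pass (-0.53 ± 0.33). The small subunits Rfc4 (-0.94 ± 0.10, adjusted p = 3.34e-05), Rfc3 (-0.69 ± 0.12) and Rfc5 (-0.61 ± 0.10) followed, and Rfc2 changed least (-0.33 ± 0.12, adjusted p = 0.0361), passing in 3 of 12 fits that left out a rat. Pcna, the clamp itself, ran from 11.73 to 11.94 in vehicle rats without wood, 11.38 to 11.54 with wood, 11.19 to 11.37 in drug rats without wood and 11.18 to 11.55 with wood. Rat 4003 at 11.55 lay within the vehicle range, and the fall was 0.35 ± 0.08 on the log2 scale (adjusted p = 0.00345).

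The 3 subunits of replication protein A, which coats single-stranded DNA, fell by modest amounts: Rpa3 by 0.49 ± 0.08, Rpa1 by 0.35 ± 0.06 and Rpa2 by 0.30 ± 0.10 on the log2 scale. Rpa1 and Rpa3 did so with no overlap between the 6 drug and the 6 vehicle arrays, and Rpa2 passed in 8 of 12 fits that left out a rat. Among the genes that finish Okazaki fragments, the flap nuclease Fen1 fell (-0.81 ± 0.18, adjusted p = 0.00349), and the ligase Lig1 (-0.23 ± 0.16) and the RNase H2 subunit Rnaseh2a (-0.19 ± 0.09) did not pass. Of the fork protection genes, Wdhd1 (the And-1 protein, which ties polymerase alpha to the helicase) measured 7.25, 7.81 and 8.04 in vehicle rats without wood, 7.47, 7.06 and 7.70 with wood, 6.38, 6.62 and 6.70 in drug rats without wood, and 6.34, 6.90 and 5.49 with wood. The highest drug value, 6.90 in rat 4003, stayed below the lowest vehicle value, 7.06 in rat 3003, and the fall was 1.15 ± 0.24 on the log2 scale (adjusted p = 0.00219). Timeless fell (-0.48 ± 0.12, adjusted p = 0.00797), whereas its binding partner Tipin differed by -0.02 ± 0.18.

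The drug effect was seen in each housing, with more calls without wood. Without wood 28 members fell and 1 rose, beside 22.4% and 22.7% of all genes (45.1% in either direction). With wood 16 fell and 2 rose, beside 18.5% and 19.9% (38.4%). The medians were -0.70 and -0.37. Of the 28 that fell without wood and the 16 that fell with wood, 15 were shared, which is 53.6% of the first list and 93.8% of the second. The interaction, which tests the difference between the housings, was passed by 0 of 43 members by limma, beside 0.705% of all genes called, 0.558% with a lower and 0.147% with a higher value. At an unadjusted limma p under 0.05 were 8 members, beside 1770 of all 13614 genes. The smallest p-values were those of Pola2 (0.83 ± 0.24, adjusted p = 0.183), Mcm4 (0.65 ± 0.21, adjusted p = 0.232) and Orc1 (1.14 ± 0.37, adjusted p = 0.233). With the blank-cell batch term the counts were 13 called without wood and 19 with wood. With wood, the 18 calls became 11 without rat 3003, 9 without rat 3005 and 10 without rat 4001.

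**Figure D4:**
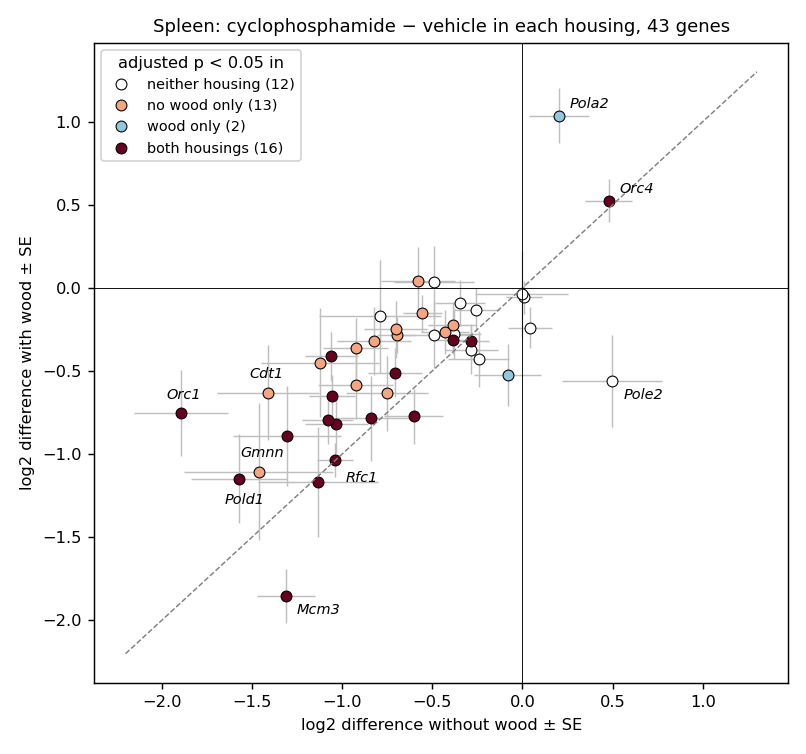
Spleen drug effect of each of 43 replication genes without wood (x axis) and with wood (y axis), as log2 differences ± 1 SE; the dashed line marks equal effects and colours mark in which housing the gene passed an adjusted p of 0.05. In 36 genes both effects lie below 0, and in 32 genes the effect without wood is the lower one, whereas Mcm3 (-1.31 without and -1.85 with wood) lies on the other side of the line.

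In vehicle rats, 6 members were lower with wood and 1 was higher in spleen, beside 7.64% and 7.48% of all genes (15.1% in either direction). They were Orc1 (-1.27 ± 0.26, adjusted p = 0.0145), Pola1 (-0.89 ± 0.20, adjusted p = 0.0219), Mcm4 (-0.56 ± 0.15, adjusted p = 0.033), Gins3 (-0.47 ± 0.13, adjusted p = 0.0347), Mcm6 (-0.62 ± 0.18, adjusted p = 0.0455) and Pola2 (-0.58 ± 0.17, adjusted p = 0.0457), and Pole2 was higher (1.18 ± 0.28, adjusted p = 0.0233). All 3 arrays of vehicle rats without wood were among the 4 with over 1500 blank cells, and with these as a batch term, which only rat 2005 sets apart from the groups, 0 members passed. The count was 1 without rat 1003, 2 without rat 1005, 2 without rat 3001, 0 without rat 3003 and 2 without rat 3005. In cyclophosphamide rats 0 of 43 members passed for wood by limma, with 1 at an unadjusted p under 0.05. Of all 13614 genes 0 passed, with 1173 at an unadjusted p under 0.05. The smallest p-values there were those of Rpa3 (0.26 ± 0.11, adjusted p = 0.562), Rfc5 (0.32 ± 0.15, adjusted p = 0.583) and Rfc2 (-0.33 ± 0.17, adjusted p = 0.6).

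Averaged over the 43 members, the deviation from the spleen mean was 0.20, 0.54 and 0.44 in vehicle rats without wood and 0.06, 0.17 and 0.24 with wood. In drug rats it was -0.36, -0.32 and -0.10 without wood and -0.45, 0.01 and -0.42 with wood. Rats 2005 (-0.10) and 4003 (0.01) were the highest of their drug groups and stayed below the lowest vehicle rat (0.06). Mitosis markers followed the same order within these groups, with -1.03, -0.86 and -0.69 and then -1.22, -0.21 and -0.90. Erythroid markers did not: rat 2005 had the lowest mean of its group (-3.08) and rat 4003 the lowest of its own (-2.46). For B cell markers rats 2005 and 4003 were the highest of their drug groups, as for the replication genes. The B cell means were -1.74, -1.80 and -1.55 without wood and -2.43, -1.49 and -2.55 with wood. For granulocyte precursor markers both rats lay between their group mates.

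**Figure D5:**
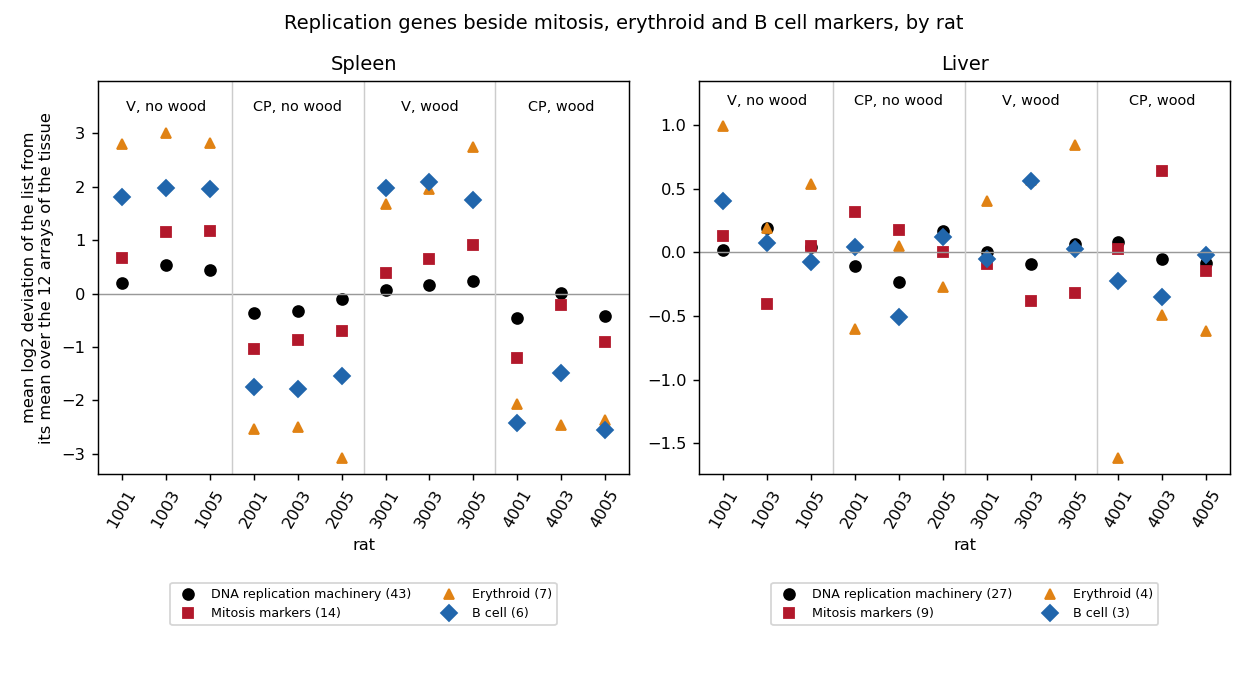
Mean log2 deviation (y axis) of the replication genes and of mitosis, erythroid and B cell markers from their mean over the 12 arrays of a tissue, for each rat (x axis), in spleen (left) and liver (right); numbers in brackets are genes with a value on every array of the tissue. In spleen all 4 lists are lower in every drug rat than in every vehicle rat, and in liver the replication genes stay between -0.23 and 0.19.

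The counts for other genes of the pathway in spleen stand beside 28.1% of all tested genes that fell and 26.9% that rose. Of 31 further replication and chromatin assembly genes 22 fell, 0 rose and 9 did not pass (median -0.44), among them the fork factor Donson (-1.65 ± 0.13), topoisomerase Top2a (-1.21 ± 0.22), the histone chaperone subunit Chaf1a (-1.06 ± 0.30) and the maintenance methylase Dnmt1 (-1.03 ± 0.16). Of 8 replication checkpoint genes 6 fell and 0 rose (median -0.48), led by the clamp loader Rad17 (-0.88 ± 0.10) and the kinase Atr (-0.65 ± 0.11). Of 26 G1 to S regulators 14 fell, 3 rose and 9 did not pass (median -0.25). The transcription factors E2f2 (-2.26 ± 0.16) and E2f8 (-1.37 ± 0.19) and cyclin A2, Ccna2 (-1.71 ± 0.26), were among those that fell. Cdkn1a, the p53 target that inhibits cyclin-dependent kinases and binds PCNA, rose. It measured 6.84, 6.60 and 6.39 in vehicle rats with wood and 8.61, 9.07 and 8.80 in drug rats with wood, a rise of 2.22 ± 0.16 (adjusted p = 3.95e-05). Of the vehicle rats without wood only rat 1001 had a value (3.77), and the mean over both housings, 3.51 ± 0.14 (adjusted p = 7.9e-07), rests on that 1 array for its vehicle group. All 15 mitosis markers fell, with a median of -1.55, the largest being Cenpf (-2.90 ± 0.27), Bub1b (-2.65 ± 0.54, with 4 of 6 drug values present), Mki67 (-2.39 ± 0.24) and Ccnb2 (-2.36 ± 0.23).

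Markers of the cells that the spleen holds also changed with the drug. Their counts stand beside 28.1% of all tested genes that fell, 26.9% that rose and 55.0% called in either direction. All 8 tested erythroid markers fell (median -4.86), and the summed intensity of the 9 genes with a probe set was 10153 to 22750.4 in vehicle and 285 to 594 in drug rats. All 6 B cell markers fell (median -4.11), with sums of 15931 to 21066 in vehicle and 1642 to 2726 in drug rats. All 3 granulocyte precursor markers fell (median -5.00), with sums of 1337 to 6009 in vehicle and 31.6 to 88.1 in drug rats. Of 8 T cell markers 2 fell and 2 rose, near the shares of all tested genes. The T cell sums overlapped, at 7441 to 8939 in vehicle and 5713 to 8902 in drug rats. Other markers were higher: 7 of 8 macrophage, 8 of 9 stroma and all 7 endothelium markers rose, and their sums did not overlap between vehicle (15458 to 19044, 3756 to 4749 and 5219 to 7212) and drug rats (30317 to 33618, 9214 to 11548 and 9819 to 12222). Of 6 tested pancreas markers 1 rose, and their sum over 7 genes was 312 to 1012 in vehicle and 541 to 15696 in drug rats, the highest being rat 2003, whose mean deviation of these markers was 4.76. Without rat 2003, 29 replication genes fell and 2 rose, with a median of -0.45. The summed intensity of the 43 replication genes was 19032 to 26234 in vehicle and 13724 to 18271 in drug rats. The part of these changes in cell markers in the fall of the replication genes was not tested.

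In the liver no replication gene passed the test for the drug. The count was 0 of 35 by limma, beside 0.812% of all 12683 tested genes called (0.647% lower and 0.166% higher), and the median was -0.09 against -0.023 for all genes. At an unadjusted limma p under 0.05 were 4 members, beside 1811 of all tested genes. Rpa3 had the smallest p and measured 9.05, 8.88 and 8.86 in vehicle rats without wood, 8.96, 8.96 and 8.996 with wood, 9.37, 9.41 and 9.18 in drug rats without wood, and 9.24, 9.08 and 9.17 with wood. All 6 drug arrays lay above all 6 vehicle arrays (1.06% of genes with complete liver values did so). In 0 of 27 members did all drug arrays lie below all vehicle arrays, as in 1.82% of genes. For Rpa3 the limma difference was 0.29 ± 0.07 (adjusted p = 0.106). Over the alternatives the adjusted p of Rpa3 ran from 0.0334 with an offset of 64 to 0.225 without rat 1003, and it was 0.0432 with an offset of 16 and 0.0385 with the dimmer genes left out, below the median level.

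Without rat 2003, whose liver array stood apart, 0 of 34 members passed and the median was 0.015. The 4 polymerase and primase genes with complete liver values had a mean deviation of -1.71 on that array, against -0.018 to 0.31 on the other 11. These 4 genes did not move alike. Leaving out rat 2003 took the liver drug difference of Pola1 from -0.65 to 0.26 and that of Prim1 from -0.22 to 0.10. Those of Pold2 (0.046 to 0.037) and Pold3 (-0.33 to -0.26) moved less.

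The next smallest p-values in liver were those of Pold3 and Fen1. Pold3 measured 7.84, 7.59 and 7.61, then 7.80, 7.92 and 7.68 in the vehicle groups without and with wood, and 7.46, 7.07 and 7.50, then 7.60, 7.49 and 7.36 in the drug groups. Rat 4001 at 7.60 touched the vehicle range, and the difference was -0.33 ± 0.10 (adjusted p = 0.187). Fen1 measured 4.28, 5.39 and 5.03, then 5.08, 4.01 and 5.33 in the vehicle groups, and 6.32, 6.29 and 5.15, then 5.48, 5.54 and 5.29 in the drug groups, so that the ranges overlapped. Its difference was 0.82 ± 0.30 (adjusted p = 0.267). Mcm10 differed by -1.09 ± 0.41 (adjusted p = 0.283). Without rat 2003, Pold3 differed by -0.26 (adjusted p = 0.211) and Mcm10 by -1.41 (adjusted p = 0.0939). Errors were wide for some members with blank cells, such as Rfc5 at -1.26 ± 1.39 with 5 of 12 liver values blank. Simulated differences of 1 on the log2 scale were called in 63% of altered genes in liver and 77% in spleen, and differences of 0.5 in 13.5% and 39%. The simulations altered only a small part of the genes, whereas 55.0% of all genes were called in the spleen data. The adjustment depends on that share, so the spleen rates cannot be read as those of the real test. The altered genes were drawn at random from all tested genes, not from the members, so the liver rates are not rates for the replication genes.

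The pathway lists also had 0 genes called in liver by limma: 0 of 29 further replication genes (3 at an unadjusted p under 0.05), 0 of 26 G1 to S regulators (4), 0 of 8 checkpoint genes (1) and 0 of 11 mitosis markers (4), whose median was 0.39 with 9 of 11 above 0. The counts in brackets stand beside 1811 of all 12683 genes at that level. Among liver markers of other cells, 1 of 7 erythroid markers fell, Alas2, the erythroid form of the first enzyme of haem synthesis (-3.28 ± 0.15), whereas Ahsp (-1.02 ± 0.57) and Car2 (-0.41 ± 0.22) did not pass, and 4 of 8 macrophage markers fell. Of all tested genes 0.647% fell in liver. For the drug in either housing, wood in vehicle rats, wood in drug rats and the interaction, 0 of 35 members passed in liver by limma, with 5, 0, 1, 3 and 2 at an unadjusted p under 0.05 in that order. At that level were 1512, 1030, 484, 984 and 650 of all genes, in the same order. Of all 12683 genes, 0.150% were called for the drug without wood (0.0946% lower and 0.0552% higher), 0.0473% with wood, all lower, and 0 in the other 3 comparisons. The smallest p-values were those of Timeless for wood in vehicle rats (-1.97 ± 0.80, adjusted p = 0.9998), Mcm4 for wood in drug rats (1.12 ± 0.29, adjusted p = 0.464) and Mcm4 for the interaction (1.28 ± 0.41, adjusted p = 0.937).

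The difference between the organs in the drug effect was tested in 1 model over all 24 arrays. Of 35 members, 11 had a lower effect in spleen than in liver and 1 (Orc4) a higher one, where 14.7% and 18.4% of all 12474 genes did (33.1% in either direction). The 12 members together are near that share. The 11 were Orc2, Orc6, Mcm3, Mcm4, Mcm7, Gins3, Gins4, Pole, Rfc1, Rpa3 and Fen1. Rpa3 had the smallest p (-0.78 ± 0.10, adjusted p = 1.11e-05), its spleen value being lower and its liver value higher with the drug. For Fen1 the difference was -1.64 ± 0.36 (adjusted p = 0.002) and for Mcm3 -1.52 ± 0.40 (adjusted p = 0.00728) with 10 of 12 liver values present. With blanks set to 0 and an offset of 16, Mcm3 was at -0.99 and did not pass (adjusted p = 0.0874). Pole, with a blank liver value in 1 drug rat, was at 0.010 there (adjusted p = 0.99). Pole was not called with an offset of 64 either (-0.13), and Mcm4 was not called after quantile normalisation (adjusted p = 0.0717) or median centring (adjusted p = 0.0602). Averaging the probe sets of a gene took Orc4 to 0.11, Orc6 to -1.02 and Rfc1 to -0.48, none of which passed. Mcm2 (-1.25 ± 0.48, adjusted p = 0.0593) and Pcna (-0.26 ± 0.14, adjusted p = 0.158) did not pass. The 8 members without a liver test, among them Gmnn, Pold1 and Wdhd1, could not be compared.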

How the data were processed

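RNA of 12 livers and 12 spleens was measured on Affymetrix rat expression arrays, 1 array per organ. The deposited values are log10 intensities with blank cells, a base read from the values, since the middle 98% of them spans 2143-fold as log10 and 10.1-fold as log2. The summary and scaling methods are not given in the sources used here. Of all cells 10.468% were blank, and these were treated as missing. Values were converted to log2 and fitted with limma 3.58.1 in R 4.3.3, as group means over the 12 arrays of a tissue, or over all 24 for comparisons of tissues. A gene was tested where each group had at least 1 value. P-values were adjusted by Benjamini-Hochberg over all genes of a comparison. Of 30980 probe sets, 20792 named 1 gene, 436 several and 9752 none; the first kind was used. The members and lists were chosen with earlier results of these data known.

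Full values are given for up to 8 members per tissue, by size among those called or else the 3 smallest p, with the largest and smallest of each role, members called for wood, up to 4 genes per pathway list and up to 3 per marker list. The animal pairs liver and spleen per the labels. Deviations from the group mean in liver and spleen of the same animal correlated at -0.058 to 0.170 over 10530 genes. Those of a liver and the spleens of other rats of its group correlated at -0.202 to 0.122. Only for rat 2001 was 1 of these above the value of the own animal. Centring on the group mean ties these values together, so they are not independent. The number of arrays limits the precision. Scripts were tested on simulated data. Alternatives were other scalings, offsets, filters, probe set rules, priors, array weights, a blank-cell batch term, the animal as a block, and leaving out each rat.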

Additional observations from a re-analysis of the deposited data

Results flagged for a closer look

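For 12 replication genes the drug effect in spleen differed from that in liver by a test of the difference itself, a contrast over all 24 arrays in limma with adjustment over 12474 genes. They are 12 of the 35 members tested, which is near the 33.1% of all genes called in either direction. The difference, spleen minus liver, was -0.43 for Orc2, -2.03 for Orc6, -1.52 for Mcm3, -0.64 for Mcm4, -0.82 for Mcm7, -0.85 for Gins3, -0.60 for Gins4, -0.56 for Pole, -0.78 for Rfc1, -0.78 for Rpa3 and -1.64 for Fen1, and 0.53 for Orc4. Rpa3, Gins3 and Fen1 had the smallest adjusted p (1.11e-05, 0.00112 and 0.002). In fits that each left out 1 rat, Gins4 and Mcm4 passed in 3 of 12 and Pole in 8 of 12, whereas the other 9 passed in all 12. Pole did not pass in either tissue alone. When the probe sets of each gene were averaged, Orc4 (0.11), Orc6 (-1.02) and Rfc1 (-0.48) no longer passed. Mcm4 and Gins4 have 1 probe set each and kept their values there, while their adjusted p moved to 0.0504 and 0.0529. Mcm4 also did not pass after quantile normalisation (-0.69, adjusted p = 0.0717) or median centring (-0.62, adjusted p = 0.0602), nor did Mcm3 with an offset of 16 (-0.99, adjusted p = 0.0874), nor Gins4 with array weights (-0.46, adjusted p = 0.054), nor Pole with an offset of 16 (0.010) or 64 (-0.13).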

How the results depend on the processing

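The spleen drug effect averaged over both housings kept its count of 33 called members within 1.5 times under all alternatives, at 28 to 37 over the fits that left out 1 rat and 26 with the blank-cell batch term. Without wood the 29 calls became 13 with that term and ran from 20 to 32 over left-out rats, and with wood the 18 calls ran from 9 to 25. The 7 calls for wood in vehicle rats became 3 with median centring, 11 with array weights and 0 with the batch term, and ran from 0 to 9 over left-out rats. For the interaction in spleen the count of 0 became 2 with array weights and ran from 0 to 2, and 2 was reached without rat 2005. In liver the count of 0 for the drug became 1 (Rpa3) with an offset of 16, with an offset of 64 and with genes below the median level left out. The 12 calls for the drug effect in spleen against liver became 22 with an offset of 64, where 43 members were tested, and 6 with the median-level filter, where 15 were, and ran from 9 to 12. The 33 calls for spleen against liver became 14 with that filter, where 15 were tested, and ran from 31 to 33. Pole, at -0.56 for the drug effect in spleen against liver, was at 0.010 (adjusted p = 0.99) with an offset of 16. Its liver value was blank in 1 drug rat, and the offset settings put that blank at 0. The cause of these changes was not tested, and the number of members tested also differed between some of the settings. With the animal as a replicate block the counts were 33 for spleen against liver and 13 for the difference in drug effect, where Mcm2 was added (adjusted p = 0.047), and the block changed no other call. Removing all 4 spleen arrays with over 1500 blanks was possible only for the drug with wood and for wood in drug rats, and a fit of only the groups compared has no form for means of housings or the interaction. Low intensity limits the liver, where 8 members had no test.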
